A study of Mus musculus with 150 samples.

Results

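Cyp2f2 encodes CYP2F2, the cytochrome P450 that makes up much of the P450 of the mouse club cell, the secretory cell of the bronchiolar lining. All probe sets that the platform annotation pairs with Cyp2f2 were taken, which gave 1 probe set (1448792_PM_a_at) of the 45037 on the array, and 1 gene of 17097 named ones. It lay above the dim-signal filter used for the tests, as did 39185 probe sets in all, and it was followed in every strain, dose and week.

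The study exposed male mice to styrene in inhaled air and profiled whole-lung RNA of 150 mice, in 31 groups of 2 to 10, with a single Affymetrix HT MG-430 PM array for each mouse. Replicates are therefore separate animals. Mice came from 1 supplier and were described as adult, and they breathed either air alone or 120 ppm styrene for 26, 52, 78 or 104 weeks, at 6 hours per day on 5 days per week. The labels' exposure protocol speaks of a far shorter exposure than each sample's own week label. The week labels were used.

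WT mice are C57BL/6 mice with both copies of Cyp2f2 (31 mice, 11 in air and 20 in styrene, with no air group at 26 weeks). KO mice are C57BL/6 mice labelled CYP2F2(-/-), a knock-out (39 mice, 20 in air and 19 in styrene). TG mice are labelled CYP2F2(-/-) too and also carry a transgene that the labels write as 2F1,SA13,2B6 (38 mice, 19 in air and 19 in styrene). The sources used here do not give the promoter that drives the transgene, and levels of the transgene are not analysed here. CD-1 mice are outbred mice for which the labels name no deletion (42 mice, 21 in air and 21 in styrene). KO and TG mice differ from WT by the labelled deletion and may differ by how the lines were bred, which cannot be told apart here. The tissue label held up: Sftpc, the surfactant protein of alveolar type 2 cells, ran from 13.65 to 13.93 on the log2 scale over all mice, Ager, of alveolar type 1 cells, from 12.61 to 13.67, and Scgb1a1, the club cell secretoglobin, from 13.59 to 14, the highest value in the table. Foxj1, of ciliated cells, ran from 5.19 to 8.78.

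P450 enzymes of the endoplasmic reticulum take electrons from P450 reductase and insert oxygen into small molecules. CYP2F2 oxidises naphthalene, styrene and related compounds to reactive metabolites, and club cells, which are rich in it, are the lung cells that such compounds injure in mice. Epoxide hydrolases and glutathione transferases remove the epoxides that result. The gene lies on chromosome 7 in a cluster of Cyp2a, Cyp2b, Cyp2g, Cyp2s and Cyp2t genes.

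The 250 bases before the start of Cyp2f2, in RefSeq's GRCm38.p6 tables, lie at chr7:27119705-27119954 on the plus strand. They are printed because the gene that the probe set is named for starts just after them. Capitals mark TCAAGTG, the core that NK2 homeodomain factors bind, among them NKX2-1, a regulator of lung epithelial genes.

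Cyp2f2 promoter: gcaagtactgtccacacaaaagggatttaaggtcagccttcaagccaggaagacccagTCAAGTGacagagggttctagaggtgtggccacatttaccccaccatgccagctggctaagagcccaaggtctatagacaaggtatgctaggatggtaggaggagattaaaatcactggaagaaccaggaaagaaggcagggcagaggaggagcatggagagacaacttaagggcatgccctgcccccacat

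TCAAGTG was found once, on the plus strand, beginning 192 bases before the start, and 2.68% of the 32851 promoter windows of the same length hold it on either strand. TGTTTNC, a forkhead core bound by FOXA factors, was not in this window and is in 17.8% of all windows. TTGCNNAA, a C/EBP core, was not in it and is in 9.56%. TATAAA was not in it and is in 12.4%. No overlap arose, since only 1 of these motifs matched. The GC content was 51.6%, against a median of 52.4% over all windows. A match to these letters is a description of the window and not a bound site.

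Cyp2f2 gave a strong signal in every lung and a clearly stronger one in WT and CD-1 lungs. In WT mice its log2 level was 13.32 ± 0.13 (SD, n = 31) and ran from 12.95 to 13.53. In CD-1 mice it was 13.26 ± 0.24 (SD, n = 42), with a range of 12.07 to 13.54. In KO mice it was 12.18 ± 0.19 (SD, n = 39) with a range of 11.69 to 12.55, and in TG mice 12.12 ± 0.15 (SD, n = 38) with a range of 11.80 to 12.40. Every KO and TG mouse lay below every WT mouse, which is the direction the labels give. The probe set stayed bright in the mice labelled CYP2F2(-/-), where its lowest value, 11.69, lay far above the level of the dim-signal filter, 2.99 to 3.19. The sources used here do not say which part of the gene is deleted or where the probes lie on the transcript, so the level in KO and TG cannot be read as that of a whole transcript. In whole lung, fewer club cells and less RNA per club cell cannot be told apart.

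**Figure D1:**
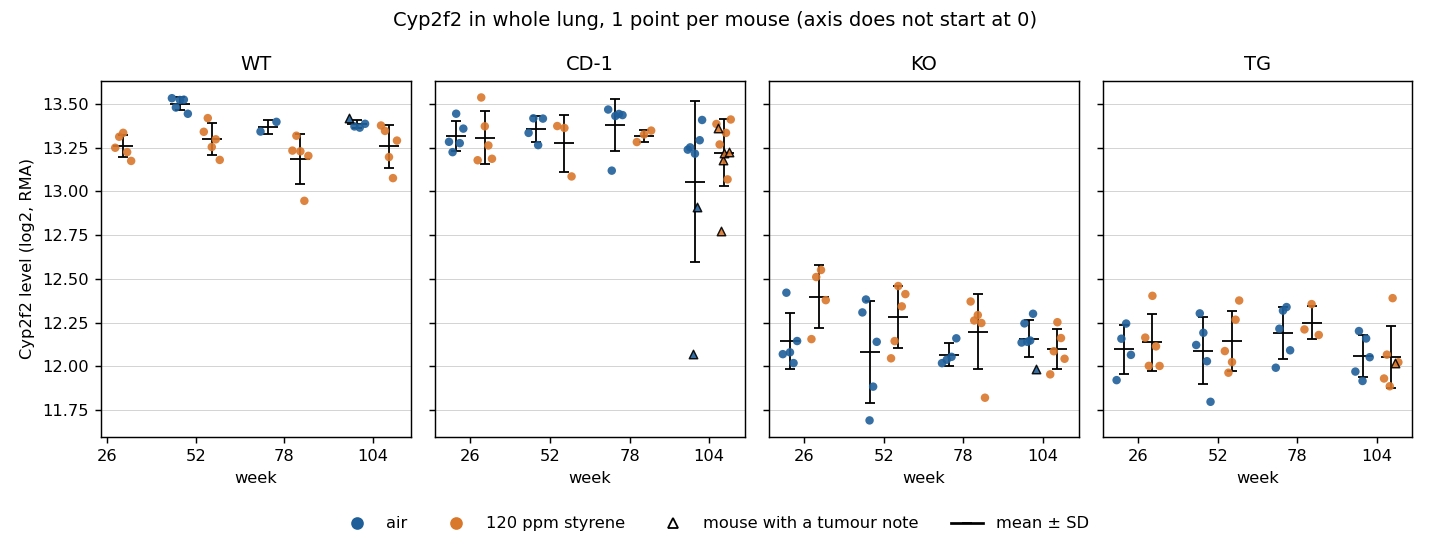
Cyp2f2 level (log2, RMA) of each mouse against week, in 4 panels by strain, with air in blue, 120 ppm styrene in orange, mice with a tumour note as triangles, and bars for the mean ± SD of each group. KO and TG mice lie between 11.69 and 12.55 and WT mice between 12.95 and 13.53, and 1 CD-1 mouse in air at 104 weeks lies at 12.07.

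The 16 KO and TG groups had means between 12.05 (TG, styrene, 104 weeks) and 12.40 (KO, styrene, 26 weeks), and the 15 WT and CD-1 groups between 13.05 (CD-1, air, 104 weeks) and 13.50 (WT, air, 52 weeks). Between these sets lay a gap of 0.66. In the order of all 31 means, 29 of 30 neighbouring groups overlapped in range, and 28 of 30 steps were smaller than the larger SD of the pair. The ranges of WT in air at 104 weeks and WT in air at 52 weeks, the highest groups of all, did not overlap. The step across the gap exceeded its SD, and those ranges overlapped only through the CD-1 mouse at 12.07.

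Among WT mice in air, the 5 mice at 52 weeks read 13.53, 13.48, 13.52, 13.52 and 13.44. The 2 at 78 weeks read 13.34 and 13.40, and the 4 at 104 weeks read 13.42, 13.37, 13.36 and 13.39. Their pooled SD within groups was 0.033, and only CD-1 mice in styrene at 78 weeks, also with an SD of 0.033 (n = 3), were a group as tight. WT mice in styrene read 13.25, 13.31, 13.33, 13.22 and 13.17 at 26 weeks and 13.34, 13.42, 13.25, 13.30 and 13.18 at 52 weeks. They read 13.23, 13.32, 13.23, 12.95 and 13.20 at 78 weeks and 13.38, 13.34, 13.20, 13.08 and 13.29 at 104 weeks. Their pooled SD within groups was 0.11. The spread of exposed WT mice thus exceeded that of WT mice in air, and no test of the spreads was made.

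KO mice in air read 12.07, 12.42, 12.08, 12.02 and 12.14 at 26 weeks, and 12.31, 12.38, 11.69, 11.88 and 12.14 at 52 weeks. At 78 weeks they read 12.02, 12.04, 12.05 and 12.16, and at 104 weeks from 11.99 through a median of 12.14 to 12.30 (6 mice). The 52-week group held the lowest mouse of the whole study. KO mice in styrene read 12.16, 12.51, 12.55 and 12.38 at 26 weeks, and 12.05, 12.14, 12.46, 12.34 and 12.41 at 52 weeks. They read 12.37, 12.26, 12.29, 12.25 and 11.82 at 78 weeks and 11.95, 12.09, 12.25, 12.16 and 12.04 at 104 weeks. Every one of these groups overlapped its air group.

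TG mice in air read 11.92, 12.16, 12.24 and 12.07 at 26 weeks, and 12.12, 12.30, 12.19, 12.03 and 11.80 at 52 weeks. They read 11.99, 12.22, 12.32, 12.34 and 12.09 at 78 weeks and 11.97, 12.20, 11.92, 12.16 and 12.05 at 104 weeks. Their pooled SD within groups, 0.15, was close to that of KO mice in air, 0.18. TG mice in styrene read 12.16, 12.00, 12.40, 12.11 and 12.00 at 26 weeks, and 12.09, 11.96, 12.02, 12.27 and 12.38 at 52 weeks. They read 12.21, 12.36 and 12.18 at 78 weeks, and ran from 11.89 through 12.02 to 12.39 at 104 weeks (6 mice). All of these values lie within the range of KO mice.

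CD-1 mice in air read 13.28, 13.22, 13.44, 13.28 and 13.36 at 26 weeks, and 13.33, 13.42, 13.26 and 13.42 at 52 weeks. They read 13.47, 13.12, 13.43, 13.44 and 13.44 at 78 weeks, and at 104 weeks ran from 12.07 through 13.24 to 13.41 (7 mice). CD-1 mice in styrene read 13.18, 13.54, 13.37, 13.26 and 13.19 at 26 weeks, 13.37, 13.36 and 13.08 at 52 weeks and 13.28, 13.32 and 13.35 at 78 weeks. The 10 exposed CD-1 mice at 104 weeks ran from 12.77 through 13.25 to 13.41. Up to 78 weeks every CD-1 mouse lay between 13.08 and 13.54, within the range of WT mice but for the highest.

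Array plates were inferred here from the well names in the labels, and the plate numbers below are that inference. Up to 78 weeks most arrays were on plate 1. On plate 2 were the exposed KO and TG mice at 78 weeks and 4 of the 5 exposed WT mice at 78 weeks. The CD-1 mice that read 13.54 (styrene, 26 weeks) and 13.26 (air, 52 weeks) were on it too. The fit had a term for plate 2, which rests on the groups that lie on both plates. At 104 weeks all air arrays were on plate 3 and the styrene arrays on plate 4, except that 2 exposed KO and 2 exposed TG arrays may lie on either. In WT and CD-1 mice dose and plate cannot be told apart there within the strain. In the 104-week comparisons of styrene with air, 43.6% of all tested probe sets passed the test in WT, 33.5% in KO and 58.6% in CD-1, but 0% in TG (0 by limma, against 2721 at an unadjusted p under 0.05). These counts depended on how plate was modelled. A plate 4 term rests only on the exposed arrays of 1 strain, KO or TG, at 104 weeks. It is thus imprecise, so a count can fall with it for want of precision alone. Whether plate or dose made the calls was not tested. With a plate 4 term and the open KO arrays taken as plate 3, the count fell from 17101 to 31 in WT, from 13130 to 9 in KO and from 22966 to 214 in CD-1, and was 165 in TG. With the open TG arrays taken as plate 3 it was 3167 in WT, 0 in KO, 5909 in CD-1 and 0 in TG. The Cyp2f2 differences at 104 weeks did not pass the test in any of these fits, which for the plate 4 fits says little.

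The comparison of KO and TG with WT asks how far the labelled deletion shows in the transcript. In air, averaged over the weeks both strains had, Cyp2f2 fell by 1.31 on the log2 scale in KO mice (SE 0.075, 95% interval -1.46 to -1.17, limma adjusted p = 7.44e-31), or 2.49-fold. It ranked 2 by p and 14 by size among the 39185 tested probe sets, of which 0.225% passed the test. In TG mice it fell by 1.30 (SE 0.075, limma adjusted p = 9.5e-31), or 2.47-fold, where 0.454% of probe sets passed. In styrene the difference was -1.01 in KO (SE 0.058, 2.01-fold lower, limma adjusted p = 9.3e-31) and -1.11 in TG (SE 0.059, 2.15-fold lower, limma adjusted p = 1.07e-33). There 1.44% and 1.96% of probe sets passed. The array's response at such bright levels was not calibrated here, so the fold is one of array signal.

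TG and KO mice, which share the CYP2F2(-/-) label, did not differ in Cyp2f2 beyond their spread. In air the TG minus KO difference was -0.0044 (SE 0.058, 95% interval -0.12 to 0.11, limma adjusted p = 0.998), with 0.304% of probe sets passing. In styrene it was -0.099 (SE 0.060, 95% interval -0.22 to 0.019, limma adjusted p = 0.583), with 0.383% passing. The wider interval reaches a TG minus KO difference of -0.22.

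CD-1 and WT mice, neither labelled with a deletion, differed in a large part of the transcriptome, with 16% of probe sets passing in air and 14.8% in styrene. Cyp2f2 did not pass in either. Its CD-1 minus WT difference was -0.16 in air (SE 0.075, 95% interval -0.31 to -0.0084, unadjusted p = 0.0386, limma adjusted p = 0.151) and 0.036 in styrene (SE 0.062, 95% interval -0.088 to 0.16, limma adjusted p = 0.803). Without the CD-1 mouse at 12.07 the difference in air was -0.10.

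**Figure D2:**
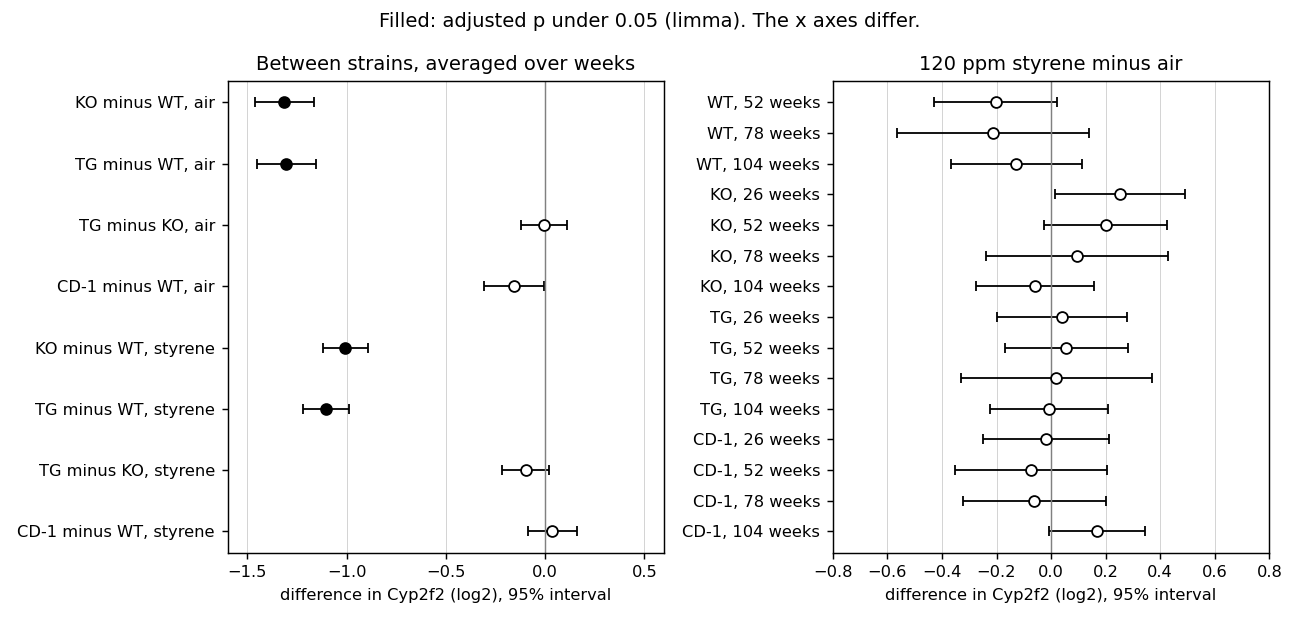
Fitted differences in Cyp2f2 (log2) with 95% intervals, between strains averaged over the weeks both had (left) and between 120 ppm styrene and air in each strain and week (right), filled where the limma adjusted p was under 0.05. The 4 differences of KO and TG from WT run from -1.31 to -1.01 and are filled, and all 15 styrene differences are open.

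The comparison of styrene with air asks whether inhaling a substrate of the enzyme goes with a change in its transcript. By limma none of the 15 comparisons passed the test, with adjusted p from 0.0967 to 1.00, and 1 of 15 had an unadjusted p under 0.05. The sizes ran from -0.21 in WT at 78 weeks to 0.25 in KO at 26 weeks, which is far smaller than the strain difference.

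In WT mice the mean of exposed animals was lower at each of the 3 weeks compared, though no week passed the limma test. At 52 weeks, when all arrays were on plate 1, the difference was -0.20 (SE 0.11, 95% interval -0.43 to 0.023, limma adjusted p = 0.441). All 5 exposed mice lay below all 5 air mice. In this comparison 1.39% of probe sets passed the test. At 78 weeks it was -0.21 (SE 0.18, limma adjusted p = 0.999, 0.0051% of probe sets passing), and the 5 exposed mice again lay below both air mice. Of these 5, 4 were on plate 2 and both air mice on plate 1. At 104 weeks it was -0.13 (SE 0.12, limma adjusted p = 0.403), with overlapping ranges. All 15 exposed WT mice at these weeks lay below the mean of the air mice of their week.

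The limma test uses 1 spread for all strains, and WT mice in air spread less than that. An exact two-sided permutation test over the mice, added after these values were seen, gave p = 0.00794 at 52 weeks, the smallest that 5 against 5 allows, and 0.119 after adjustment over the 15 comparisons. It gave p = 0.19 at 78 weeks and p = 0.0635 at 104 weeks (exact permutation, adjusted 0.667 and 0.357). Averaged over the 3 weeks, with dose rearranged within weeks, the difference was -0.17 with p = 0.00025 (exact permutation), and over 52 and 78 weeks alone it was -0.19 with p = 0.00265 (exact permutation). At 78 and 104 weeks plates and dose moved together, and the permutation test has no plate term. Since the pattern was chosen for testing after it was seen, these p-values are no independent support for it.

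Club cell markers were compared in WT mice of the same weeks. At 78 weeks 0 of 15 passed by limma (0 at an unadjusted p under 0.05), with a median difference of -0.12. At 104 weeks 3 of 15 fell and none rose, with a median of -0.058, where 43.6% of all probe sets passed. In WT at 52 weeks 2 of 15 markers fell (limma) and none rose, with a median difference of -0.27 over the list against -0.014 over all probe sets. Cckar, the cholecystokinin A receptor, fell by 0.82 (SE 0.19, limma adjusted p = 0.00993) and Gabrp, a GABA receptor subunit, fell by 0.86 (SE 0.24, limma adjusted p = 0.0357), while Scgb1a1 differed by -0.056 (limma adjusted p = 0.639). Scgb1a1 lay at the top of the range of values (13.59 to 14 over all mice), where the array's response was not calibrated here. The mean level of the 15 markers was 10.15 to 10.60 in the air mice and 9.61 to 10.39 in the exposed mice. The mean level of 10 heart muscle markers, which cells of mouse pulmonary veins express as well, was 5.92 to 6.55 in air and 6.41 to 8.12 in styrene, though none passed the limma test (1 at an unadjusted p under 0.05). Their part in the Cyp2f2 difference was not tested.

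In KO mice the differences were positive up to 78 weeks, and none passed. They were 0.25 at 26 weeks (SE 0.12, 95% interval 0.013 to 0.49, unadjusted p = 0.0393, limma adjusted p = 1.00), 0.20 at 52 weeks (SE 0.11, limma adjusted p = 1.00) and 0.093 at 78 weeks (SE 0.17, limma adjusted p = 1.00), and -0.059 at 104 weeks (SE 0.11, limma adjusted p = 0.705). All 4 mice exposed for 26 weeks exceeded the mean of their air group. The exact permutation p at 26 weeks was 0.0714. In these comparisons the share of probe sets passing was 0% at 26 weeks (0 by limma, 930 at an unadjusted p under 0.05), 0.0102% at 52 weeks and 0% at 78 weeks (0 by limma, 1515 unadjusted).

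In TG mice the differences were 0.040 at 26 weeks, 0.055 at 52 weeks, 0.020 at 78 weeks and -0.0076 at 104 weeks, with SE from 0.11 to 0.18. Exposed TG mice lay on both sides of the air mean at each week, 10 of 19 below. The share of probe sets passing was 0% at 26 weeks (0 by limma, 885 unadjusted), 0.0153% at 52 weeks and 0.0128% at 78 weeks. The 78-week count in TG depends on the plate 2 term: 5 probe sets passed with it and 15423 without it. There dose and plate moved together in TG mice. In CD-1 mice the differences were -0.018 at 26 weeks, -0.075 at 52 weeks, -0.061 at 78 weeks and 0.17 at 104 weeks (SE 0.12, 0.14, 0.13 and 0.089). The CD-1 shares were 0.38%, 0.13% and 0.105% at 26, 52 and 78 weeks. The 104-week value came to 0.0028 without the CD-1 mouse at 12.07.

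The effects of styrene were set against each other within the same model. The effect in WT minus that in KO, averaged over 52, 78 and 104 weeks, was -0.26 (SE 0.10, 95% interval -0.46 to -0.061, unadjusted p = 0.0108, limma adjusted p = 0.609), with 0.0587% of probe sets passing. The adjusted value did not pass the threshold. The effect in TG minus that in KO was -0.095 (SE 0.083, limma adjusted p = 1.00), with 0% passing (0 by limma, 1595 at an unadjusted p under 0.05). The effect in CD-1 minus that in WT was 0.19 (SE 0.11, limma adjusted p = 0.645), with 0.0255% passing. The comparisons of WT with KO and of CD-1 with WT share the WT mice, and those of WT and of TG with KO share the KO mice.

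No week comparison of Cyp2f2 passed the test in any strain, while many other probe sets did. In air, 78 minus 26 weeks was -0.079 in KO (SE 0.12, limma adjusted p = 0.679), 0.094 in TG (SE 0.12, limma adjusted p = 0.615) and 0.062 in CD-1 (SE 0.11, limma adjusted p = 0.73). Of all probe sets 19.1%, 18.1% and 24.2% passed in these comparisons. In WT in air, 78 minus 52 weeks was -0.13 (SE 0.15, limma adjusted p = 0.743, 0.656% passing), where both 78-week mice lay below all 5 of the 52-week mice.

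In styrene, 52 minus 26 weeks was 0.039 in WT (SE 0.11, 13% of probe sets passing), -0.12 in KO (SE 0.12, 0.0128%), 0.0063 in TG (SE 0.11, 3.6%) and -0.026 in CD-1 (SE 0.13, 2.35%). The limma adjusted p-values were 0.864, 1.00, 0.984 and 0.948. The ranges of the 26-week and 52-week mice overlapped in all 4 strains.

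A note of tumours or tumour-like lesions marks 10 mice, 7 of them CD-1 mice at 104 weeks. The labels say that lung was sampled whole and that tumours were not assayed apart. The 2 noted CD-1 mice in air read 12.07 and 12.91, and the 5 without a note 13.22 to 13.41, so the sets did not overlap. In styrene the 5 noted mice read 13.36, 12.77, 13.18, 13.22 and 13.22, and the 5 others ran from 13.07 to 13.41, with overlap. With dose in the model the noted mice were lower by 0.38 (difference -0.38, SE 0.13, unadjusted p = 0.011, limma adjusted p = 0.557), and 0% of probe sets passed (0 by limma, 3211 at an unadjusted p under 0.05). An exact two-sided permutation test within dose, added after the values were seen, gave p = 0.00624. Without the mouse at 12.07 the difference was -0.20 and the exact permutation p 0.0324. Neither permutation p was adjusted, and the test was chosen after the values were seen. These p-values are no independent support for a difference. The noted mice of other strains read 13.42 (WT in air), 11.99 (KO in air) and 12.02 (TG in styrene), which were the highest, the lowest and a middle value of their groups.

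The CD-1 mouse in air at 104 weeks that read 12.07 (replicate 3) differed from the other 6 of its group in much more than Cyp2f2. It lay below all 6 in 26.6% and above all 6 in 26.2% of all probe sets. Its mean over the 15 club cell markers was 7.89, against 9.28 to 9.96 in the others, and it lay below them all in 13 of 15. It lay below them all in 13 of 13 ciliated cell markers (mean 5.21 against 6.45 to 7.19), in 8 of 8 alveolar type 1 markers (9.95 against 10.95 to 11.23) and in 7 of 10 heart muscle markers. It also lay below them all in 7 of 10 alveolar type 2 markers and above them all in 2, with a mean of 11.01 against 10.80 to 11.20 in the others. In the 100 probe sets with the widest difference between CD-1 and WT mice up to 78 weeks, it lay nearer to CD-1 in 82, within the 76 to 90 of the other 16 CD-1 mice at 104 weeks.

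Of the genes that flank Cyp2f2 in the RefSeq order, Cyp2a22 on the Cyp2a side and Cyp2t4 on the other are not measured by a probe set named for them, and Cyp2g1 did not pass the dim-signal filter. Cyp2a12, a steroid hydroxylase gene, was dim, with a range of 3.01 to 3.77 in WT in air, near the filter level of 2.99 to 3.19. A change could hardly be seen at such a level. Its KO minus WT differences were 0.042 in air (limma adjusted p = 0.999) and -0.026 in styrene (limma adjusted p = 0.912). Egln2, a prolyl hydroxylase of hypoxia-inducible factor, differed by -0.054 and -0.10 (limma adjusted p = 0.999 and 0.27), and Rab4b, a small GTPase of endosomes, by 0.16 and -0.15 (limma adjusted p = 0.915 and 0.298).

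Mia, which encodes a small secreted matrix protein and lies on the same side as Egln2 and Rab4b, was lower in KO and in TG mice than in WT. Its log2 level in air was 6.27 ± 0.43 (SD, n = 11) in WT, 5.63 ± 0.34 (SD, n = 20) in KO and 5.58 ± 0.35 (SD, n = 19) in TG, with overlapping ranges. Mia fell by 0.65 in KO (SE 0.13, limma adjusted p = 0.000925) and by 0.67 in TG (SE 0.12, limma adjusted p = 0.000424) in air, and by 0.67 and 0.75 in styrene (SE 0.097 and 0.098). CD-1 mice, for which no deletion is labelled, also had lower Mia than WT in air, by -0.76 (SE 0.13, limma adjusted p = 7.46e-07), and the -0.23 in styrene did not pass (limma adjusted p = 0.139).

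Cyp2a5, the coumarin hydroxylase gene next to Cyp2a22, was the only other tested gene of the cluster list that passed in KO or TG against WT, and only in styrene. There it differed by -1.22 in KO (SE 0.24, limma adjusted p = 0.000384) and by -1.48 in TG (SE 0.24, limma adjusted p = 5.5e-06). In air the differences were -0.63 (SE 0.31, limma adjusted p = 0.833) and -0.46 (SE 0.31, limma adjusted p = 0.642). Its levels spread widely within strains: in air from 8.80 to 10.67 in WT, from 6.71 to 10.72 in KO and from 7.29 to 10.22 in TG. Probe sets of the closely related Cyp2a genes can share signal, so its level is uncertain. In all, 7 of the 12 other genes of the cluster list were measured and 4 tested, and 0 of 4 passed in KO against WT in air by limma, with a median difference of -0.045 against -0.0043 over all probe sets. Cyp2b10, a target of the nuclear receptor CAR, and Cyp2b9 differed by 0.0068 and -0.096 there (limma adjusted p = 0.999 and 0.978).

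**Figure D3:**
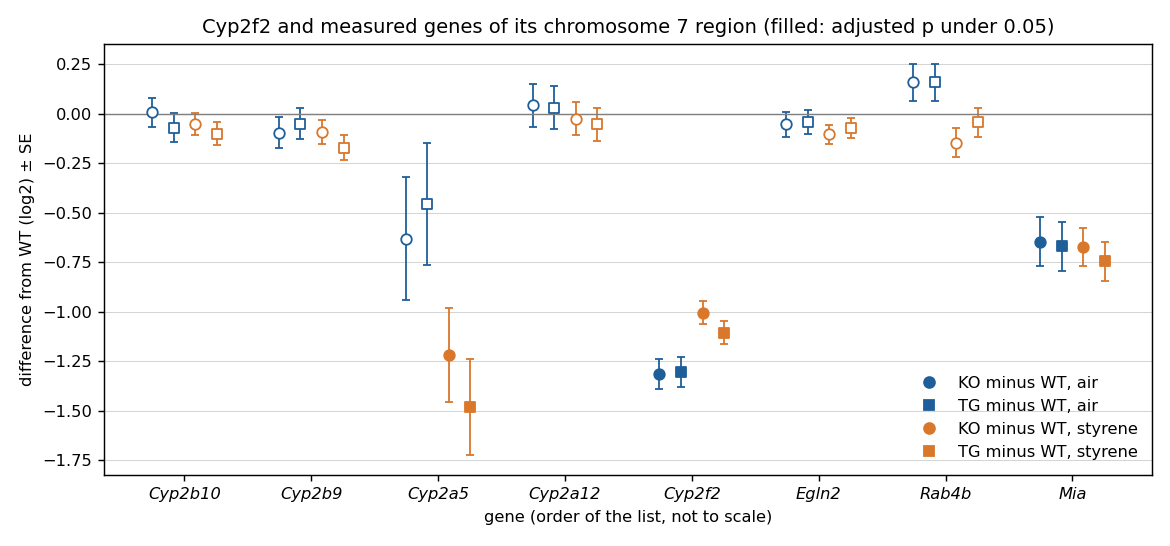
Difference from WT (log2, with SE) of Cyp2f2 and the tested genes of its chromosome 7 region, in KO (circles) and TG (squares), in air (blue) and styrene (orange), filled where the limma adjusted p was under 0.05. Cyp2f2 and Mia are filled in all 4 comparisons, and Cyp2a5 in styrene, at -1.22 and -1.48.

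Between KO or TG mice and WT, 0 to 2 of 15 club cell markers passed the test in each comparison. Of all probe sets 0.225% passed in KO and 0.454% in TG in air, and 1.44% and 1.96% in styrene. In air 0 of 15 club cell markers passed in KO against WT by limma (4 at an unadjusted p under 0.05), with a median difference of -0.082. In TG 2 of 15 fell, Cldn10, a claudin, by 0.57 and Aox3, an aldehyde oxidase, by 0.54 (SE 0.15 and 0.14, limma adjusted p = 0.0387 and 0.0386), with a median of -0.11. In styrene 1 of 15 rose in KO, Cckar at 0.37 (SE 0.098, limma adjusted p = 0.0273), and none passed in TG (3 unadjusted). Scgb1a1 differed by -0.039 in KO and -0.041 in TG in air (limma adjusted p = 0.968 and 0.66), at levels near the top of the array's range, where a fall may be hard to see. The mean level of the 15 markers in air ran from 9.85 to 10.60 in WT, from 9.62 to 10.68 in KO and from 9.74 to 10.59 in TG. Alveolar macrophage markers stood beside this with a mean level of 8.11 to 8.63 in WT, 8.07 to 9.75 in KO and 8.06 to 10.19 in TG in air, where 0 of 10 passed in KO by limma (3 unadjusted) and 2 of 10 rose in TG, Siglecf and Krt79, by 0.60 and 0.81 (limma adjusted p = 0.00474 and 0.00411). Their part in the Cyp2f2 difference was not tested.

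Other P450s, P450 partners, epoxide hydrolases and glutathione transferases were compared in the same mice, against the same shares over all probe sets (0.225% in KO and 0.454% in TG in air, 1.44% and 1.96% in styrene). Whether each of them acts on styrene or its epoxides was not tested. Among 14 other P450 genes 1 fell in KO and in TG in air, Cyp1b1, an oxidiser of oestrogens and aromatic compounds, by 0.82 and 0.90 (SE 0.17 and 0.17, limma adjusted p = 0.00272 and 0.000432). In styrene none of the 14 passed in either strain by limma (1 and 4 at an unadjusted p under 0.05). Some of the 14 lay near the dim-signal filter, such as Cyp2u1 and Cyp2c55, with means of 2.68 and 3.12 in WT in air. Of 5 measured electron donors and partners of P450, none passed in either strain or dose by limma (1 or 2 at an unadjusted p under 0.05). Of 20 epoxide hydrolase and glutathione transferase genes, 2 fell and none rose in both strains in air: Gsta2 by 0.73 in KO and 0.86 in TG (limma adjusted p = 0.0113 and 0.00052), and Gstm6 by 0.53 and 0.45 (limma adjusted p = 0.00941 and 0.0387). In styrene 2 fell in KO and 7 in TG, among them Gstm3 by 0.35 and 0.47 (limma adjusted p = 0.00412 and 1.58e-05) and Gsta4 in TG by 0.48 (limma adjusted p = 2.59e-06). Medians of this list were -0.14, -0.14, -0.15 and -0.19 in the 4 comparisons, against -0.0071 to 0.0075 over all probe sets. Glutathione transferases are a family of close copies, so single members are uncertain.

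The genes whose group means ran most like those of Cyp2f2 were found by Pearson's r over the 31 groups, among 15694 other genes. Since the means fall into a lower set (KO and TG, here null) and a higher set (WT and CD-1, here intact), r within the 16 null and the 15 intact groups is given beside it. Ces1f, a carboxylesterase gene, led with 0.95 (0.49 in the null and 0.51 in the intact groups). It was followed by Ifna2 at 0.89 (0.20 and 0.47), Aox1, an aldehyde oxidase gene, at 0.88 (-0.0064 and 0.69), and Ugt1a9 and Ugt1a6a, glucuronosyltransferase genes of 1 shared locus, at 0.86 (0.12 and -0.33) and 0.86 (0.040 and -0.079). Cd59a, a complement regulator, had 0.82 (0.47 and -0.047), Txnrd1, thioredoxin reductase, 0.81 (0.11 and 0.084), and Acsm1, an acyl-CoA synthetase gene, 0.80 (0.63 and 0.25). Ces1f was lower than WT in KO by -2.75 (SE 0.21) and in TG by -2.57 (SE 0.21) in air, and by -1.47 and -1.72 in styrene. Among these 8 genes, r was positive in both sets for Ces1f, Ifna2, Txnrd1 and Acsm1. Ifna2 belongs to a family of close copies and is uncertain.

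Within groups, mice with more Cyp2f2 tended to have more of other airway epithelial transcripts, and of alveolar type 1 and heart muscle markers too. Over the deviations of the 150 mice from their group means, Ces1d, another carboxylesterase, had the highest r, 0.78, followed by Tppp3, a ciliated cell tubulin-binding protein (0.76), Gsta2 (0.76), Elapor1 (0.76), Foxa1, a forkhead regulator of airway epithelium (0.76), Scgb3a2, a club cell secretoglobin (0.75), Ldhb, a lactate dehydrogenase subunit (0.75), and Dnali1, an axonemal dynein chain (0.74). The lowest were Sla, an adaptor of blood cells (-0.76), Msr1, the macrophage scavenger receptor (-0.69), Adgre1, the F4/80 antigen (-0.68), and Fcgr4, an Fc receptor (-0.67). Over all genes the median was 0.017, and 90% of genes lay between -0.39 and 0.46.

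All 15 club cell markers had r above 0, with a median of 0.51 (0.70 in WT and CD-1, 0.42 in KO and TG), and all 13 ciliated cell markers, with a median of 0.61. None of 10 alveolar macrophage markers did, with a median of -0.35, and alveolar type 2 markers had a median of 0.043, with 6 of 10 above 0. The positive relation was not particular to airway cells. All 10 heart muscle markers had r above 0 with a median of 0.37, as did all 8 alveolar type 1 markers with 0.41 and all 20 epoxide hydrolase and glutathione transferase genes with 0.50. On plate 1 the medians were 0.46 for heart muscle, 0.40 for club cells, 0.48 for ciliated cells, 0.081 for alveolar type 1 cells and 0.21 for the hydrolases and transferases. The other lists had medians of 0.33 (3 of 4 cluster genes above 0), 0.11 (9 of 14 other P450 genes) and 0.37 (4 of 5 electron donors and partners). For the mean of each list, r was 0.59 for club cells, 0.66 for ciliated cells and -0.45 for macrophages over all mice. Without the 2 mice farthest from their group mean, both CD-1 at 104 weeks, these came to 0.50, 0.56 and -0.53. On plate 1 alone they were 0.55, 0.58 and -0.49 (88 mice), and on plate 2 they were 0.30, 0.60 and -0.90 (14 mice). The mice share plates, dissection and RNA composition, no p is given, and the part of these in the relation was not tested.

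**Figure D4:**
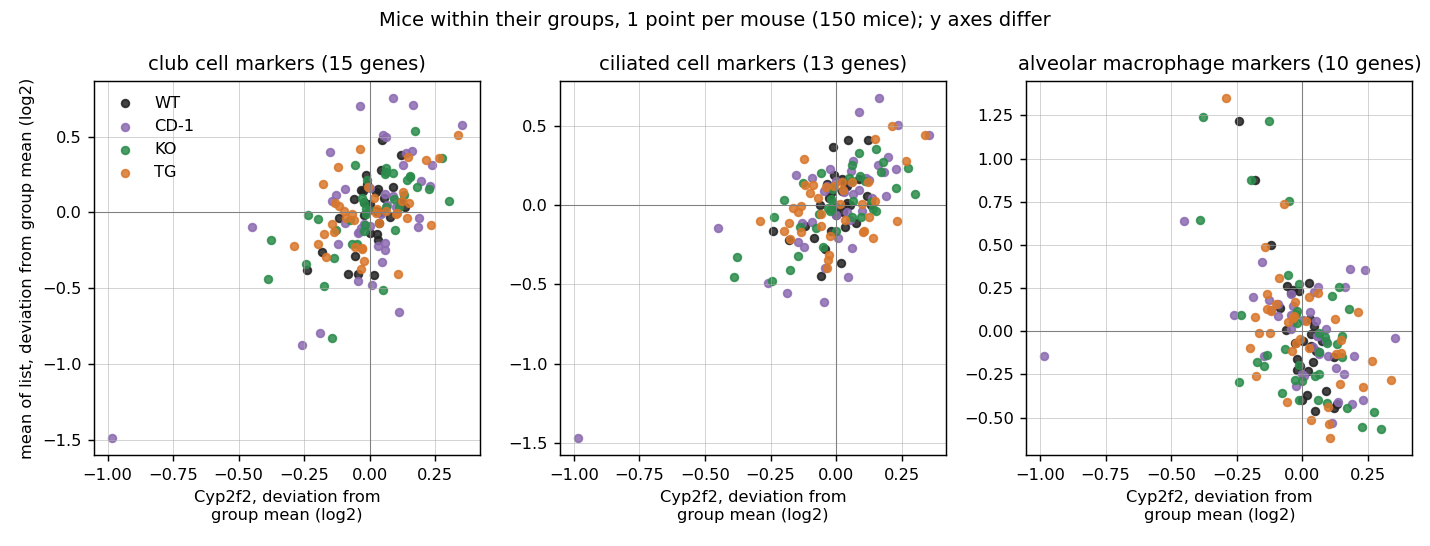
Deviation of each of 150 mice from its group mean (log2), for Cyp2f2 on the x axis and for the mean of club cell, ciliated cell and alveolar macrophage markers on the y axes, coloured by strain. Points rise to the right in the first panels (r 0.59 and 0.66) and fall in the last (-0.45), with 1 CD-1 mouse far to the left at -0.98.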

How the data were processed

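RNA of whole lung from 150 mice was measured on 1 array each. The authors deposited a log2 intensity for each probe set and array, made with RMA (background correction, normalisation between arrays, summary over probes), and Partek is named too, per the submitters' processing notes. The sources used here give no versions and do not say if all plates were normalised in a single run. Values ran from 1.74 to 14 with array medians of 3.95 to 4.26. Arrays have no read depth, and the number of mice per group limits the precision.

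Groups came from each sample's title. Plates were inferred from the wells named in the labels (88, 14, 22 and 22 arrays on plates 1 to 4, and 4 on plate 3 or 4). The design text states 154 mice, of which 150 are analysed here. The annotation lists 29449 probe sets, 28898 of them with 1 gene, 551 with several and 15588 not listed; symbols of 28689 were updated through gene IDs. A gene other than Cyp2f2 is shown by its probe set with the highest mean.

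Probe sets above the 30th percentile of an array in at least 3 arrays were kept (39185 of 45037). All 31 group means and a plate 2 term were fitted with limma (lmFit and eBayes), and p-values were adjusted by Benjamini and Hochberg over all tested probe sets, with a threshold of 0.05. Every adjusted p is from limma unless named otherwise. Where groups of a comparison spanned several weeks, only weeks with both sides were averaged. The tumour note was fitted in 17 CD-1 mice with dose as a covariate. The fit was tested on simulated data. Named genes are Cyp2f2, Scgb1a1, the chromosome 7 cluster and neighbours, the 8 genes most like Cyp2f2 over group means, the 8 highest and 4 lowest within groups, and up to 4 members of each other list with the smallest p. The gene and these lists were chosen with earlier results of these data known. Alternatives were other filters, 1 probe set a gene, no plate term or plate 4 terms, strains fitted apart, eBayes with trend and robust, a replicate block, plate 1 alone, no tumour-noted mice and each mouse of groups of 2 to 5 left out. Exact permutation tests, a fit of WT mice alone and one without a CD-1 mouse were added after the data were seen. No pair of arrays was identical. Software was R 4.3.3, limma 3.58.1, the R package data.table (1.17.8), Python 3.11.15, numpy 2.4.6, pandas 2.3.3 and matplotlib 3.10.9.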

Additional observations from a re-analysis of the deposited data

Results flagged for a closer look

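Of 27 groups of 4 to 10 mice, 4 had a mouse set far from the rest of its group in Cyp2f2, where chance gives about 1 in 20 groups. In CD-1 mice in air at 104 weeks the lowest mouse (replicate 3, with a tumour note) was at 12.07. In CD-1 mice in air at 78 weeks the lowest was at 13.12, with the other 4 at 13.43 to 13.47. In KO mice in styrene at 78 weeks the lowest was at 11.82, with the others at 12.25 to 12.37. In TG mice in styrene at 104 weeks the highest was at 12.39, with the others at 11.89 to 12.07.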

How the results depend on the processing

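Alternatives other than the planned omission of single mice gave 389 values of the 35 tested comparisons of Cyp2f2. Of these, 387 kept their direction and, where an adjusted p was given, their side of the threshold. The exceptions were with plate 1 arrays only, where TG minus KO in air turned to 0.027 and 52 minus 26 weeks in exposed CD-1 mice to 0.024. Where an adjusted p was given, no comparison gained or lost its call under any alternative run, single mice left out included. The exact permutation value of the tumour note had no adjusted p and was compared in direction only. Other exact permutation p-values were adjusted over the 15 comparisons of styrene with air. Those averaged over weeks in WT are not among these values. No group median lay further than 1 SD from its group mean. Leaving out single mice turned the sign of 10 comparisons, none of which had passed. Their ranges were -0.029 to 0.014 for TG minus KO in air, -0.0022 to 0.059 for CD-1 minus WT in styrene, -0.076 to 0.068 and -0.052 to 0.073 for 52 minus 26 weeks in exposed CD-1 and TG, and for styrene minus air -0.067 to 0.016 and -0.12 to 0.019 in CD-1 at 26 and 52 weeks and -0.026 to 0.089, -0.018 to 0.11, -0.034 to 0.057 and -0.044 to 0.028 in TG at 26, 52, 78 and 104 weeks. With the replicate number as a replicate block, KO minus WT was -1.31 in air and -1.01 in styrene, and no call changed; same-numbered mice of different groups deviated together no more than others (mean correlation 0.0051 against -0.00041). The count of probe sets passing moved by over 1.5 times for KO minus WT in styrene (566, against 913 with C57BL/6 fitted apart, 320 with a plate 4 term and the open KO arrays on plate 3, and 3060 on plate 1), TG minus WT in styrene (768, 283 on plate 1), TG minus WT in air (178, 315 fitted apart) and TG minus KO in styrene (150, 303 fitted apart); 50 other counts moved so far, among them those of styrene minus air at 104 weeks with a plate 4 term (CD-1 from 22966 to 214), and 26 with 1 probe set a gene, where fewer were tested. On plate 1 alone no comparison holds 104 weeks, and those of KO and TG with WT in styrene hold 26 and 52 weeks only. Comparisons averaged over weeks thus cover fewer weeks there than in the main fit. The cause of the moves was not tested.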
